A study of Mus musculus with 15 samples.

Results

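The H3K27ac losses after cocaine are 1194 genomic regions of the mouse nucleus accumbens with less acetylated histone H3 in cocaine libraries than in saline libraries. They were selected from 49712 regions in the deposited H3K27ac table. Selection required a position on chromosomes 1 to 19, a length under 3000 bp, a log2 fold of -0.2 or less, and all 3 cocaine values below all 3 saline values. The log2 fold is the log2 of the mean normalised read count of the cocaine libraries over that of the saline libraries. Position and length were met by 47609 regions, called eligible regions here, and the decreased regions were 2.51% of them. Because the selection used the values of all 6 libraries, the group difference in these regions is a description and carries no test of its own.

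The cocaine group received 7 daily intraperitoneal injections at 20 mg/kg, and the comparison group was labelled saline, with no separate injection schedule given for it. All mice were C57BL/6, and no transgene or other treatment is named for either group. H3K27ac ChIP-seq libraries were C11, C7 and C9 for cocaine and S10, S12 and S8 for saline, with 1 input library per treatment. 5-hydroxymethylcytosine (5hmC) capture was sequenced in 3 other cocaine and 3 other saline libraries. Nothing in the labels ties a library to its own mouse or pool, so a p-value here reflects only how far these libraries differ from each other, and that variation may be technical. Time from the last injection to tissue collection is not given per library.

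Acetylation of lysine 27 on histone H3 marks active enhancers and promoters. It is written by the acetyltransferases CBP and p300 and removed by histone deacetylases. The nucleus accumbens is a part of the ventral striatum made up mostly of GABAergic medium spiny neurons, with interneurons and glia, and it receives dopamine from the ventral tegmental area. Repeated cocaine is known to alter histone acetylation there. In bulk tissue, fewer cells that carry the mark and less of the mark per cell cannot be told apart. Positions are in mm9. Genes and sequences at the regions are not analysed here, and the tissue label was not checked against cell type markers.

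Most decreases were small. The median log2 fold was -0.25, and the folds ran from -0.96 to -0.20. The fold lay between -0.25 and -0.2 in 570 regions (47.7%) and was -0.5 or less in 42 regions (3.52%). The median of the cocaine means was 453 normalised reads per region and that of the saline means 564. In the authors' deposited table the median ratio of H3K27ac to input was 3.82 for cocaine and 4.64 for saline, while over all eligible regions it was 3.96 and 3.98. The input level implied by these ratios had a median log2 ratio, cocaine over saline, of -0.01 over the decreased regions. It varied between single regions, with quartiles of -0.13 and 0.13 and 5th and 95th percentiles of -0.33 and 0.35. Over eligible regions these percentiles were -0.31 and 0.32. In a single region, the fold in counts and the change in the ratio to input can therefore differ. Regions of typical size illustrate the set. At chr16:50431701-50433200 the cocaine values were 460 in C11, 479 in C7 and 510 in C9, and the saline values were 596 in S10, 535 in S12 and 603 in S8. At chr4:135576201-135577700 they were 461, 423 and 484 against 534, 517 and 590, in the same library order. In both regions the highest cocaine library and the lowest saline library stood close together, and S8 was the highest of all. S8 was also highest at chr7:57033801-57035000 and chr4:24422401-24424000, the other regions named as nearest the medians. S10 lay above S12 in the former, with 536 against 484, and slightly below it in the latter, with 529 against 536.

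The mirrored rule, with a log2 fold of 0.2 or more and all cocaine values above all saline values, found 289 increased regions. They were therefore fewer than the decreased regions, and their median fold was smaller in size, at 0.22.

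The 6 libraries took the same order in most decreased regions. After centring each region on its mean over the 6 libraries, the median log2 level was 0.22 in S8, 0.13 in S10, 0.04 in S12, -0.07 in C9, -0.17 in C7 and -0.17 in C11. Both groups were thus spread out, and C9 and S12 were the neighbours across the group border. S8 was the highest library in 1035 of the 1194 regions (86.7%), and S12 was the lowest saline library in 972 (81.4%). Within cocaine, C9 was the highest library in 1005 regions (84.2%). The complete order, with C11 and C7 lowest in either sequence, then C9, S12, S10 and S8, was present in 836 decreased regions (70.0%). Part of it, cocaine below saline, was fixed by the selection. The part within the groups alone, C9 highest in cocaine and S12, S10, S8 upward in saline, was present in the same 70.0% of the decreased regions and in 13.1% of the eligible regions. This order was picked out after the values had been seen. In the increased regions the 3 libraries of each group lay close together, with medians of 0.11 to 0.13 for cocaine and -0.13 to -0.10 for saline.

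**Figure D1:**
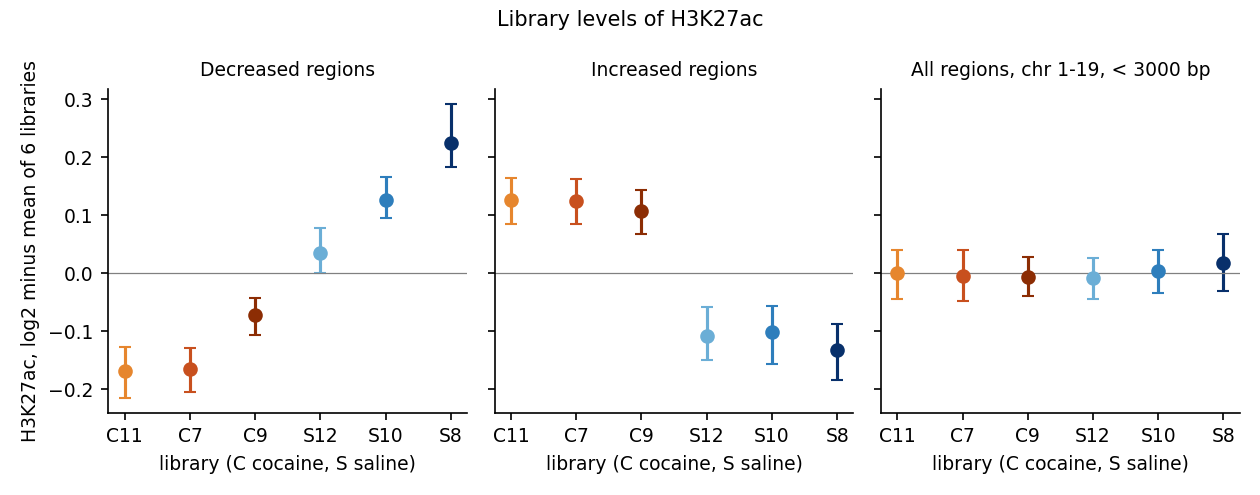
Points are the median and bars the quartiles over regions of the log2 H3K27ac level of each library, centred on the mean of the 6 libraries in each region; C libraries are cocaine and S libraries saline. Decreased regions (left) climb from C11 and C7 at -0.17 to S8 at 0.22, whereas in increased regions (middle) and all eligible regions (right) libraries of a group stay close together.

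Differences between libraries of one group were smaller than the difference between groups in most decreased regions, but not small beside it. S8 exceeded S12 by a median of 0.19 on the log2 scale, which is 0.752 of the median group difference. The difference between S8 and S12 was 0.2 or more in either direction in 46.0% of the decreased regions, against 2.60% of the eligible regions and 6.57% of the increased regions. Within cocaine, C9 exceeded C11 by a median of 0.10 and C7 by 0.10, while C7 and C11 differed by a median of 0.01. Between groups, the nearest pair was S12 over C9, with a median difference of 0.10 and 15.3% of the regions at 0.2 or more. The farthest pair was S8 over C11, with a median of 0.39 and 95.1% of the regions at 0.2 or more. The pair S8 and S12, both saline, was therefore farther apart than the pair S12 and C9 from different groups.

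Read numbers set the precision of a single region. The median decreased region held between 451.5 reads in C7 and 554.5 reads in S8, and the counting error of the log2 difference between S8 and S12 had a median of 0.09. S8 and S12 differed by more than 1.96 such errors in 57.2% of the decreased regions, against 7.75% of the eligible regions and 0.692% of the increased regions. For C9 against C11 the shares were 14.2%, 1.52% and 0%. The increased regions held fewer reads, and their median error for S8 against S12 was 0.13, so their shares rest on a wider yardstick. Between C11 and C7 only 0.544% of the eligible regions exceeded 1.96 errors, fewer than errors of that size alone would give. The counting errors were thus wide beside the spread seen, and the shares are a description. Counting errors cover read sampling only.

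The gap between the groups, from the highest cocaine to the lowest saline library, had a median of 0.09 on the log2 scale and reached at most 0.34. The gap was wider than the range of the 3 saline libraries in 193 regions (16.2%), and wider than the range within either group in 127 regions (10.6%). In 266 regions (22.3%) the saline range was larger than the fold between the group means. The saline range exceeded the cocaine range in 74.2% of the regions. The 4 regions with the widest gaps were picked after their values had been seen. Both chr8:87162701-87163700 and chr4:131767901-131768900 followed the library order, with C9 and S8 the highest of their groups. The other two did not. At chr7:71663901-71664900 the values were 149 in C11, 148 in C7 and 149 in C9 against 186 in S10, 188 in S12 and 188 in S8. Here the groups stood apart and the libraries of each group lay together. At chr5:133906801-133907800 the cocaine values were 103, 106 and 110, and S8 was the lowest saline library with 136, below S12 with 154 and S10 with 156.

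The larger the decrease, the wider the libraries of one group were spread. In the 42 regions with a log2 fold of -0.5 or less, the median of S8 minus S12 was 0.55 and that of C9 minus the mean of C11 and C7 was 0.26. In the 570 regions between -0.25 and -0.2 these medians were 0.15 and 0.09. The pattern did not begin at the threshold. Among eligible regions with a fold between -0.2 and -0.15 the medians were 0.11 and 0.07, and between -0.05 and 0 they were 0.03 and -0.01. S8 was the highest library in 70.4% of the regions between -0.2 and -0.15 and in 42.8% of those between -0.05 and 0. Among regions with a fold above 0.2, S8 minus S12 had a median of -0.03 and C9 minus the others one of -0.02. Increases were thus not accompanied by a mirrored pattern. Those regions had a lower level, with a median of 241 normalised reads per kb against 380 in the decreased regions. The comparison was not matched for level.

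**Figure D2:**
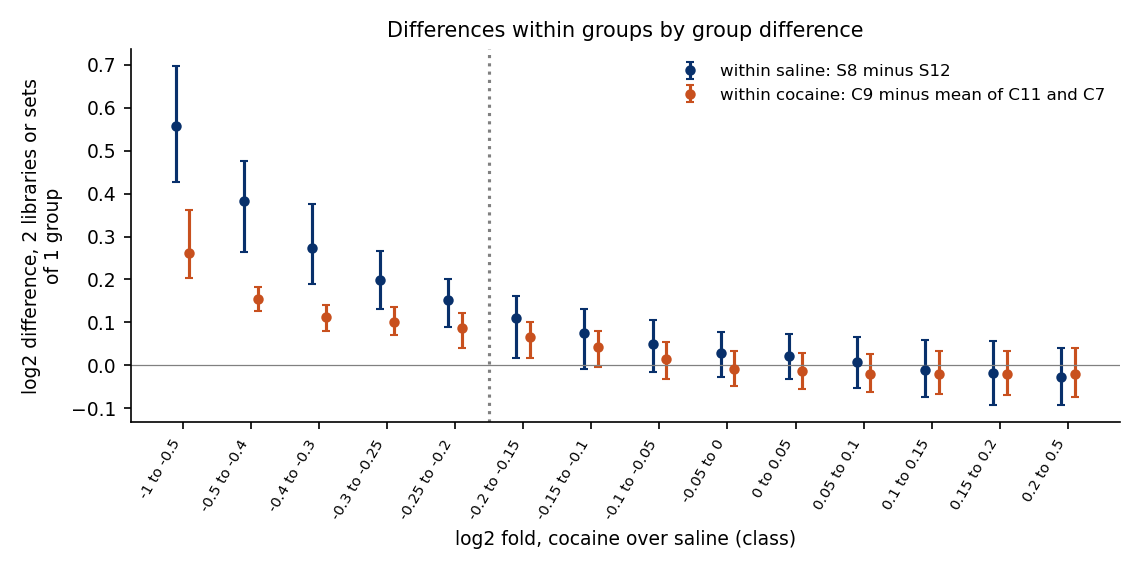
Each class on the x axis holds eligible regions with the stated log2 fold of cocaine over saline; points are medians and bars quartiles over regions of the log2 difference between libraries of 1 group, and the dotted line marks the selection threshold of -0.2. Both differences rise toward the left, to 0.56 within saline and 0.26 within cocaine, and lie near 0 on the right.

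The differences within saline and within cocaine come from separate libraries, and in the decreased regions they varied together to a limited degree. Across the 1194 regions, Pearson's r between S8 minus S12 and C9 minus the mean of C11 and C7 was 0.421 and Spearman's rho was 0.259. Across eligible regions r was 0.217, and across the 289 increased regions it was 0.0551. These are descriptions across regions of the same libraries, and regions are not independent replicates. The group fold contains the same libraries as both differences.

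**Figure D3:**
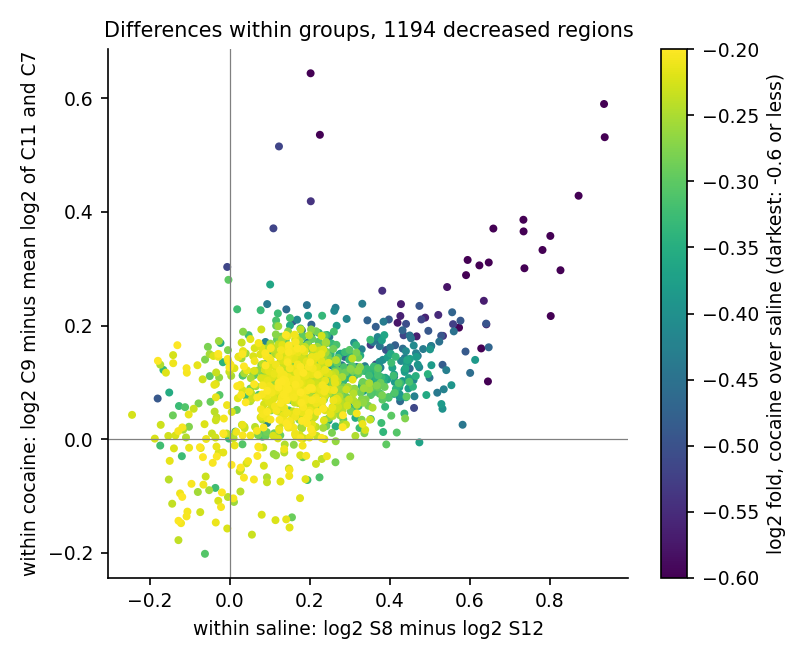
Each point is 1 of the 1194 decreased regions, placed by the log2 difference of S8 over S12 within saline (x) and of C9 over the mean of C11 and C7 within cocaine (y), and coloured by the log2 fold between groups. Most points lie in the upper right part, and the dark points with the largest decreases reach farthest out.

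Lists drawn from 1 group alone shared regions with the decreased ones. The selection used the same libraries, and a high S8 lowers the fold, so part of this sharing is built in and it is given as a description. S8 exceeded S12 by 0.2 or more in 1080 eligible regions. Of these, 548 were decreased regions (50.7% of that list and 45.9% of the decreased regions). Cocaine values did not choose this list, and C9 was above the mean of C11 and C7 in 86.8% of it, against 49.6% of the eligible regions. The opposite list, S12 above S8 by 0.2 or more, held 159 regions and 1 decreased region. C9 exceeded the mean of C11 and C7 by 0.2 or more in 63 eligible regions, of which 60 were decreased regions, and S8 was above S12 in 96.8% of the 63. The opposite cocaine list held 1 region. These lists were added after the values had been seen.

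Depth differed between libraries. The file header gives a mean of 40.1 to 47.8 reads per 1000 bp bin over the 6 libraries. Within saline the mean was lowest in S8 (40.1), then S10 (43.8) and S12 (47.8), the reverse of their order in the decreased regions. Within cocaine C9 had the highest mean (47.0, against 46.2 in C11 and 45.5 in C7) and the highest level in these regions. The part of depth in the library order was not tested. A single input library per treatment gives no value for the libraries within a group.

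Single libraries decided part of the selection. With the same rule on the 5 other libraries, leaving out S8 gave 815 regions, of which 718 were among the 1194, so 476 decreased regions (39.9%) were lost. Leaving out S12 gave 1890 regions and leaving out C9 gave 1848, the libraries next to the group border. A total of 605 decreased regions (50.7%) met the rule whichever library was left out. The regions nearest the threshold were picked by their fold, so their small distance from it was fixed by that choice. Just inside, chr12:25334901-25337400 had 1127, 1138 and 1228 in C11, C7 and C9 against 1340, 1251 and 1422 in S10, S12 and S8. Just outside, chr2:155342501-155344300 had 630, 622 and 675 against 749, 705 and 759. Both followed the library order, as did chr10:43197901-43198900 just inside and chr1:55186901-55189400 just outside. The order was absent at chr8:111352301-111353300 just inside, with 236, 208 and 223 against 256, 256 and 254. It was also absent at chr11:107844201-107845200 just outside, with 236, 226 and 242 against 264, 276 and 269. The 3 regions nearest to the threshold on either side had a fold of -0.20.

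The 8 largest decreases carried the library order in its clearest form. At chr10:7675401-7676600 C11 had 186 normalised reads, C7 had 183 and C9 had 278, against 292 in S12, 411 in S10 and 559 in S8. C9 was nearer to S12 than to the other cocaine libraries, and S8 was nearly on its own above. The cocaine mean was 216 ± 53.8 and the saline mean 421 ± 134 (SD, n = 3 each), a log2 fold of -0.96. At chr8:113579801-113580800 the cocaine libraries had 98.8, 103 and 146, and S12, S10 and S8 had 148, 229 and 284, a log2 fold of -0.93. C9 and S12 differed there by less than their counting errors. At chr10:45205501-45206500 the values were 106, 119 and 151 against 157, 237 and 288, with a log2 fold of -0.86. In the other five, at chr8:111227801-111228800, chr5:89104701-89105800, chr5:119009801-119010800, chr13:112476101-112477300 and chr5:116181501-116182700, log2 folds ran from -0.78 to -0.75. S8 exceeded S12 by 0.66 to 0.94 over all 8 regions. In each of the 8 the order was C9 highest in cocaine and S12, S10, S8 upward in saline. These regions held few reads, with saline means of 205 to 421. The deposited ratio to input was lower in cocaine in all 8. At chr13:112476101-112477300 the ratios were close, with 3.45 against 3.86, and the implied inputs were 55.0 in cocaine and 82.8 in saline.

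**Figure D4:**
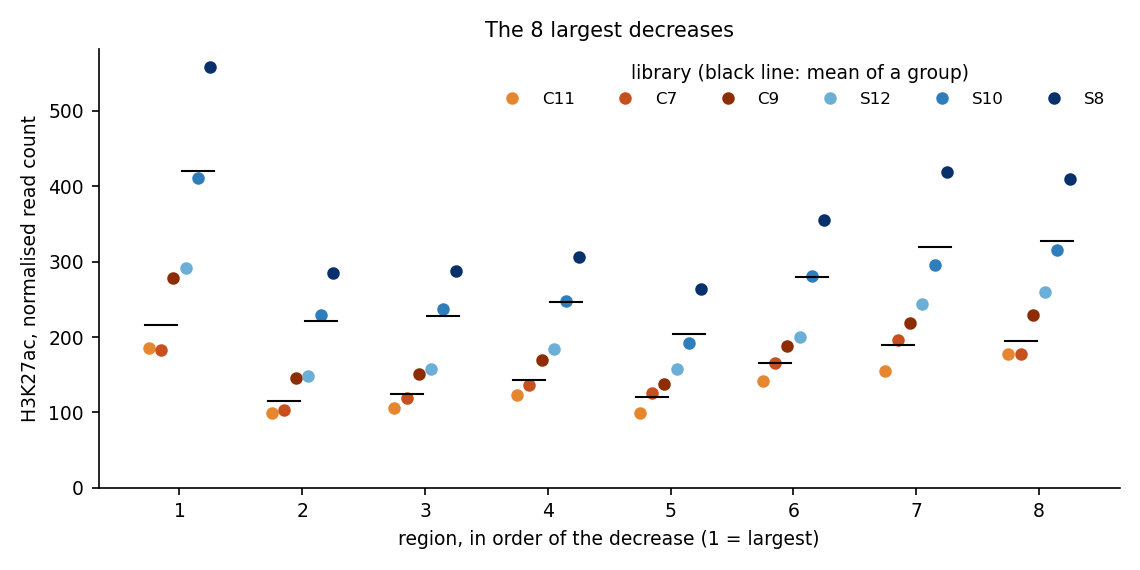
Points are the normalised H3K27ac read counts of the 6 libraries in the 8 regions with the largest decrease, and black lines are group means. In every region the values climb from C11 or C7 through C9, S12 and S10 to S8.

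The 4 decreased regions with the most signal showed the same order at a smaller size. At chr5:43623301-43626000 the values were 1513 in C11, 1474 in C7, 1614 in C9, 1882 in S10, 1679 in S12 and 2171 in S8, a log2 fold of -0.32. At chr5:132012801-132015500 they were 1633, 1639 and 1742 against 1865, 1816 and 2087, a log2 fold of -0.20. S8 stood highest and C9 was the upper cocaine library in both. The same held at chr8:74114601-74116800 (log2 fold -0.22) and chr19:4396601-4399400 (log2 fold -0.30). At chr5:43623301-43626000 the deposited ratio to input was not lower in cocaine, with 6.67 against 6.64 in saline. In the remaining regions it was lower, with 6.51 against 7.25, 6.04 against 7.04 and 5.16 against 6.31, in the order named.

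The limma test with robust moderation on log2(value + 1), fitted to all 49712 regions with Benjamini-Hochberg adjustment, called 1140 of the 1194 regions lower at an adjusted p under 0.05. It called 9.62% of all regions lower. The selection used the same contrast, so nothing is read from the members' count. All 3 cocaine values lay below all 3 saline values in 17.1% of all regions. In the authors' deposited table, 1013 decreased regions had an adjusted p under 0.05 with a lower level, as did 34.3% of all regions. All regions here means those listed by the authors' group comparison, with a window p cutoff of 0.0001. These shares are therefore no baseline over all acetylated chromatin. The 54 regions that limma did not call lay among the larger decreases, with log2 folds from -0.96 to -0.31. Their median log2 fold was -0.49 and their median of S8 minus S12 was 0.53, against -0.25 and 0.18 in the called regions. Only 19 of the 42 regions with a fold of -0.5 or less were called. All 8 of the largest decreases missed the threshold, with limma adjusted p from 0.139 to 0.195. These calls depend on how limma moderates the variance. With plain moderation all 1194 regions were called, the 8 largest decreases included. With each region's own variance, 1 of the 1194 regions passed.

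Decreased regions occurred at every level of H3K27ac. When eligible regions were ranked by normalised reads per kb into 10 equal classes, 243 decreased regions fell in the lowest class (5.10% of that class), 37 in class 4 (0.777%), 187 in class 7 (3.93%) and 98 in the highest (2.06%). Of the 289 increased regions, 241 lay in the lowest class and none above class 6. The fold of all eligible regions shifted with level too. Its median was 0.10 in the lowest class and -0.04 in the highest, so the lowest class as a whole lay toward increases. Members in the lowest class showed the saline pattern less, with a median of 0.09 for S8 minus S12, against 0.24 in the highest class. All eligible regions also differed by level, with medians of -0.02 in the lowest class and 0.09 in the highest. The rise with level is therefore not particular to the decreased regions. These differences were described, not tested. The 83 decreased regions in which S12 was the highest saline library had a median of 243 reads per kb, and the 1035 with S8 highest had a median of 400.2 reads per kb.

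**Figure D5:**
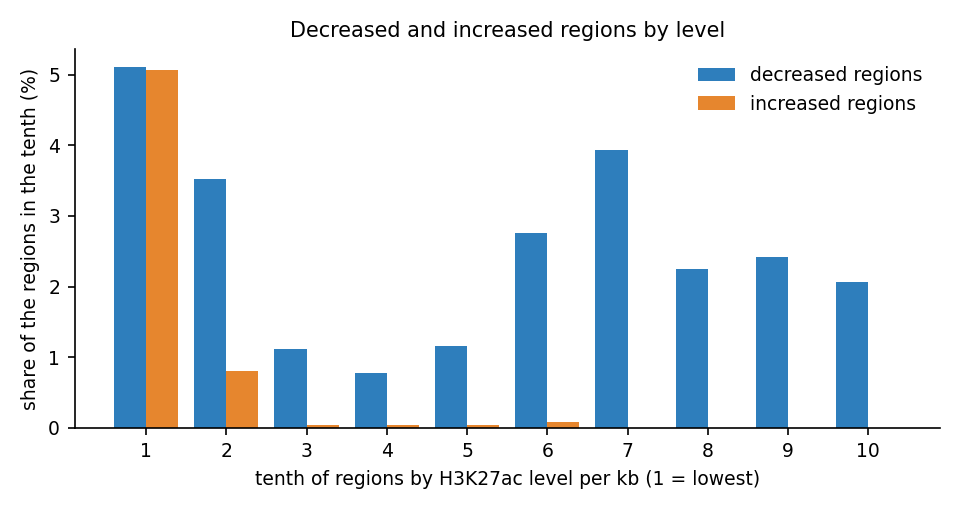
Bars give the percentage of eligible regions in each of 10 classes of H3K27ac level per kb that were decreased (blue) or increased (orange) by the mirrored rules. Decreased regions are found in every class, with 5.10% in the lowest and 3.93% in class 7, and increased regions are concentrated in the lowest class at 5.06%.

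Length and chromosome separated the decreased regions little from the other eligible regions. Their median length was 1200 bp, as in the eligible regions. The share of eligible regions that were decreased ran from 2.12% on chromosome 7 to 3.16% on chromosome 4. Most decreased regions were isolated. Only 547 (45.8%) had another listed region within 10000 bp, against 78.9% of the eligible regions. The median distance to the nearest listed region was 13100 bp against 700 bp. The increased regions shared part of this isolation, with 63.0% and a median of 4900 bp. The median distance from a decreased region to the nearest other decreased region was 392400 bp. Non-member eligible regions within 10000 bp of a decreased region numbered 1085. Their median log2 fold was -0.03, against -0.01 in the remaining non-members, and 57.5% of them lay below 0, against 51.1%.

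Within 10000 bp of each other lay 18 decreased regions, in 9 pairs and no larger cluster. At chr10:43199001-43200100 the values were 152 in C11, 146 in C7, 173 in C9, 243 in S10, 183 in S12 and 319 in S8, a log2 fold of -0.66. Its partner 100 bp away, chr10:43197901-43198900, had 234, 248 and 255 against 272, 270 and 305, a log2 fold of -0.20. These adjacent windows thus differed in size but kept the library order. At chr3:27608601-27609700 and chr3:27610001-27611000, 300 bp apart, the log2 folds were -0.44 and -0.56. At chr12:110030001-110031100 and chr12:110031901-110033100, 800 bp apart, they were -0.44 and -0.38. Members of 4 pairs departed from the order. Of the pair at chr5:113474601-113475900 and chr5:113478801-113480900, both did. The former had 321 in C11, 302 in C7 and 317 in C9 against 369 in S10, 388 in S12 and 345 in S8. There C9 lay below C11, and S8 was the lowest saline library. The latter had 519, 524 and 516 against 572, 611 and 648, so that C9 was the lowest cocaine library and S10 the lowest saline one. At chr16:94792201-94793500, chr17:84585601-84586900 and chr9:21047801-21050200, S8 was highest and S10 lay slightly below S12, with 561 against 574, 654 against 660 and 955 against 983. Over the 18 regions the log2 folds ran from -0.66 to -0.20.

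The 5hmC libraries did not enter the selection. Few decreased regions carried a region of the deposited 5hmC table, which lists regions with a group difference in 5hmC. At least 1 bp was shared in 8 of 1194 (0.670%, exact 95% binomial interval 0.290 to 1.32%), against 1025 of the eligible regions (2.15%, 2.02 to 2.29%). Increased regions had an overlap in 8 of 289 (2.77%, 1.20 to 5.38%). Within 1000 bp the shares were 1.93% for decreased and 4.77% for eligible regions. The intervals cover counting error only, and neighbouring regions are not independent.

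Of the 8 overlapping 5hmC regions, 5 were lower and 3 higher after cocaine in the authors' deposited table. The summed 5hmC in these 8 regions was 0.0644, 0.0540 and 0.0647% of all listed 5hmC counts in the cocaine libraries and 0.0837, 0.0702 and 0.0999% in the saline libraries. The groups did not overlap, with means of 0.0611 ± 0.0061% and 0.0846 ± 0.0149% (SD, n = 3 each; exact two-sided permutation p = 0.1, the smallest that 3 against 3 libraries allow). With all 5hmC regions within 1000 bp of a decreased region the difference turned to the other side, 0.0160 percentage points higher in cocaine (exact two-sided permutation p = 0.2). The 5hmC table lists regions by this same group difference, and in each of the 8 the cocaine and saline values were fully apart. A sum that separates the groups was therefore favoured in advance. The p-values add no support, and no direction is read from either comparison. The 5hmC counts were low. Which library each value belongs to is not given in that table, so values stand in the table's order.

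At chr17:24785901-24787400, with H3K27ac of 879, 893 and 991 against 1036, 1019 and 1129 (C11, C7, C9, S10, S12, S8), the 5hmC region chr17:24785861-24786060 had 1.92, 0 and 1.80 normalised reads in cocaine and 7.17, 5.15 and 7.90 in saline. Both marks were lower after cocaine. At chr7:150623001-150624400 H3K27ac was 272, 287 and 290 against 350, 332 and 380, and 5hmC at chr7:150623021-150623220 was 2.88, 1.23 and 2.70 against 9.86, 5.15 and 18.8. At chr17:69730901-69732800 the log2 fold of H3K27ac was -0.24, and 5hmC at chr17:69730721-69730920 was 1.92, 2.47 and 0.900 against 6.28, 8.24 and 8.88. At chr16:43978501-43981000 the log2 fold of H3K27ac was -0.22, and 5hmC at chr16:43980921-43981160 was 2.88, 2.47 and 2.70 against 8.96, 10.3 and 9.87. In all 4 regions the saline values of both marks lay above the cocaine values, which the selection fixed for H3K27ac and which the 5hmC table favours by listing group differences. The authors' deposited adjusted p for 5hmC was 0.14 in each of the 4. In 3 other decreased regions, named after their values had been seen, 5hmC was higher in cocaine. At chr19:42108901-42109900 H3K27ac was 211, 229 and 224 against 256, 254 and 260, and the 5hmC region had 14.4, 12.4 and 8.99 in cocaine and 3.59, 3.09 and 4.93 in saline. At chr5:30434201-30435200 5hmC was 12.5, 9.88 and 20.7 against 5.38, 5.15 and 3.95. At chr13:46908901-46909900 it was 16.3, 14.8 and 10.8 against 5.38, 4.12 and 5.92. The deposited log2 fold changes of 5hmC in the authors' deposited table were 1.62, 1.57 and 1.44 in these 3 and -2.44 to -1.86 in the 4 above.

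Overlap with the authors' lists of 5hmC enhancer intervals was rare. The cocaine-specific list of 10575 intervals touched 4 decreased regions (0.335%) and 194 eligible regions (0.407%). The saline-specific list of 10555 intervals touched 6 (0.503%) and 114 (0.239%). No label or header states how those lists were made.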

How the data were processed

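The submitters' processing notes name Bowtie 0.12.9 and mm9. Per the file headers, diffReps 1.54 produced the H3K27ac table (negative binomial test, 1000 bp windows moved by 100 bp, window p cutoff 0.0001). It lists normalised counts per library in the order of the file headers, the authors' ratio of group mean to input, and the deposited log2 fold change, p-value and adjusted p-value. The deposited 5hmC table has the same columns for 200 bp windows, with its caller not given in the sources used here. Deposited enhancer lists hold interval positions only.

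Normalised counts in all 6 H3K27ac libraries were multiples of a library-specific step: dividing by it gave whole reads, within 0.1 read, for 100% of values, and these reads gave the counting errors. Differences were fitted by limma (version 3.58.1, R 4.3.3), using log2(value + 1), with trend and robust moderation over all 49712 regions. Other steps used scipy 1.17.1, pandas 2.3.3 and numpy 2.4.6 in Python 3.11.15, and figures matplotlib 3.10.9. The limma step was also run on simulated counts with independent libraries. The simulated libraries had no order within groups, so that run does not bear on calls in regions with the library order.

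Named regions were the 8 largest decreases, the 4 with the highest saline mean, 3 on either side of the threshold, 4 nearest the medians, the 4 overlapping the strongest 5hmC differences, and the largest clusters. The members, lists and tests were chosen with earlier results of these data known. Per-library columns left unused numbered 0. One library without a clear tissue label was left out.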

Additional observations from a re-analysis of the deposited data

How the results depend on the processing

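At a threshold of -0.15 the rule found 2692 regions and at -0.3 it found 377; leaving out 1 library gave 815 (without S8) to 1890 (without S12), with 1848 without C9. Allowing overlap, longer regions, all chromosomes, median scaling or cyclic loess kept the number within 1.5 times of 1194, with 1071 of the 1194 shared under median scaling and 1024 under cyclic loess. The median log2 fold ran from -0.30 (without S12) to -0.21 (without S8). The count called lower by limma was 1 with each region's own variance, 1194 with plain moderation, 1089 to 1176 with 1 library left out, and within 1.5 times of 1140 in the other alternatives run. The median of S8 minus S12 was 0.31 at a threshold of -0.3 and 0.16 to 0.17 under median scaling and cyclic loess. Decreased regions with a 5hmC region numbered 4 when at least 50% of the 5hmC region had to be covered, 23 within 1000 bp and 0 at a deposited 5hmC adjusted p under 0.1. The difference in 5hmC share was -0.0307 to -0.0159 percentage points with 1 library left out and turned to 0.0160 within 1000 bp; the cause was not tested. Decreased regions near another numbered 88 within 50000 bp. Planned count tests on the recovered reads (edgeR, also with TMM, and DESeq2) were not run. No paired analysis was possible because the library numbers of the groups share no pairing in the labels.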

Other observations

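Regions outside the limits of position or length also met the fold and non-overlap criteria. On chromosome X or Y, 26 of 414 regions did so, all of them on X. At chrX:68808901-68810300 the values were 160 in C11, 154 in C7, 178 in C9, 225 in S10, 215 in S12 and 290 in S8, a log2 fold of -0.57. At chrX:13062601-13064200 they were 155, 168 and 180 against 235, 211 and 234, a log2 fold of -0.43. C9 was the highest cocaine library in both, whereas S8 was highest in the former only.

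Among autosomal regions of 3000 bp or more, 16 of 1689 met the fold and non-overlap criteria. The largest decrease was at chr4:133307001-133310500, with 1134 in C11, 1132 in C7, 1272 in C9, 1574 in S10, 1327 in S12 and 1817 in S8, a log2 fold of -0.42. This long region showed the library order seen in the shorter ones, and limma did not call it (adjusted p = 0.175).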
